A study of Mus musculus with 2 samples.

Results

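Mir203, Mir205, Mir31 and Mir184 are microRNA (miRNA) genes known from the epidermis, the stratified epithelium of the skin. They were taken by gene symbol from the deposited miRNA count tables of the embryonic mouse limb, as 4 of 1973 miRNA genes, and all 4 passed the detection minimum of 10 sense counts in both replicates. The limbs came from B6NCrl embryos at embryonic day 15.5, labelled healthy and with no genetic change or treatment named. The only group had 2 biological replicates of pooled limbs, 62 embryos in replicate 2 and 78 embryos in replicate 1, each pool with both sexes. Total RNA was the starting material and inserts below 30 bases were sequenced, per the labels. The libraries held 5151214 sense counts over miRNA genes in replicate 2 and 4263630 in replicate 1, and a count of 0 would still allow 3 counts, equal to 0.582 CPM for replicate 2 and to 0.704 CPM for replicate 1. CPM, the unit of every level below, is the number of sense counts per 1000000 sense counts of all miRNA genes in the same library.

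A miRNA is cut from a hairpin precursor, and the mature strand finds messenger RNAs mainly through its seed, bases 2 to 8 from the 5′ end. In the mouse epidermis, cells of the basal layer divide and renew the tissue, then leave the cell cycle and differentiate as they move outwards. The 4 genes are known from different steps of this path. Mir205 is a miRNA of basal cells and other stratified epithelia, Mir203 is induced as keratinocytes leave the basal layer, Mir31 is known from hair follicles and from proliferating keratinocytes, and Mir184 is best known from the corneal epithelium and the lens.

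The mature RNAs of the 4 genes are shown because the seed sets what each can pair with and because the sequences tell how unique the counted reads are. They are from RefSeq on GRCm38.p6, written 5′ to 3′ with the seed in capitals.
miR-203-3p: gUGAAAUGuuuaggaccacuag
miR-203-5p: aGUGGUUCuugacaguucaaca
miR-205-5p: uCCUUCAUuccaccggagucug
miR-205-3p: gAUUUCAGuggagugaagcuca
miR-31-5p: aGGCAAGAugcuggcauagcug
miR-31-3p: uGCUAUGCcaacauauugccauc
miR-184-3p: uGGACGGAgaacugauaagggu
miR-184-5p: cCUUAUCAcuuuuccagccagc
In general the arm written first for each gene is the one known to accumulate. The counts are per gene, so the arms were not told apart here.

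The 8 seeds were all different, and none of them occurred in any other of the 1738 mature entries of the RefSeq table. The seeds of miR-31-5p and miR-184-3p had the same base at 4 of the 7 positions, while those of miR-203-3p and miR-205-5p had the same base at 0. Thus the group has no common seed, and no close relative in the table is counted elsewhere under the same seed. The mature RNAs were 22 bases long except miR-31-3p with 23, so a read covers the whole RNA and counts were not divided by length.

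The precursors, also from RefSeq, are shown with both mature arms in capitals, since reads from either arm were counted for the gene.
Mir203: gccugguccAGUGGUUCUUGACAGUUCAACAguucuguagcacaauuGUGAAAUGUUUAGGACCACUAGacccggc
Mir205: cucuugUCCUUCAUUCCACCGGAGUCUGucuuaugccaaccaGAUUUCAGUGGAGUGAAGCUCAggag
Mir31: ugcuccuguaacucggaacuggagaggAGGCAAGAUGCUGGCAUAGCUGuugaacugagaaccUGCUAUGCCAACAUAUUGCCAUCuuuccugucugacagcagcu
Mir184: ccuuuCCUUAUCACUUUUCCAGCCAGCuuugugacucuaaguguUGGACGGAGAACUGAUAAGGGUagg
The precursors were 76, 68, 106 and 69 bases long in this order, with 14 to 17 bases between the arms. Their predicted minimum free energies were -35.1, -33.8, -48.7 and -29.0 kcal per mol (RNAfold), with 73.5% to 81.6% of the bases paired. Mir31 has the longest precursor and the lowest energy in total, but per base the lowest energy was that of Mir205, at -0.497 kcal per mol. None of the 4 precursors had a stretch of 20 bases in common with another annotated miRNA gene, and copies elsewhere in the genome were not analysed here.

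**Figure D1:**
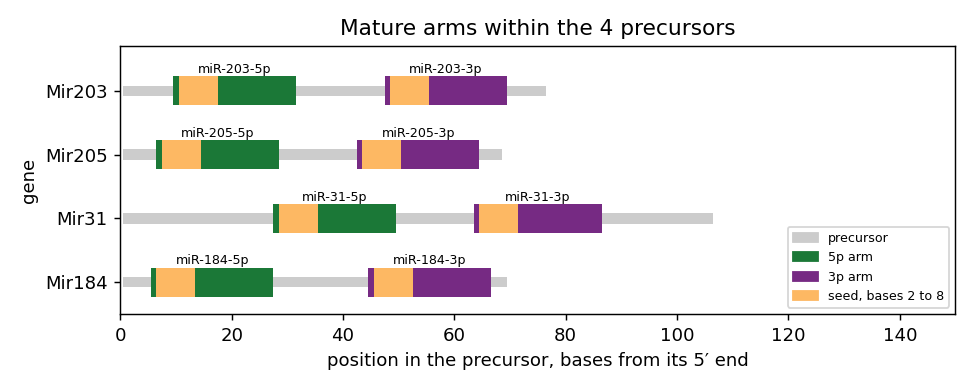
The bars show the 4 precursors by position from their 5′ end in bases, with the 5p arm in green, the 3p arm in purple and the seed in orange. The arms are separated by 14 to 17 bases in each gene, and Mir31, with 106 bases, has the longest flanks.

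The 4 genes lie on different chromosomes (mm10), and the neighbours given here are those of the GENCODE M21 annotation. Mir203 (ENSMUSG00000065574.1, chr12:112130880-112130955, plus strand) overlapped no other gene of that annotation and lay 3321 bp from the asparaginase gene Aspg. Mir205 (ENSMUSG00000065533.1, chr1:193507463-193507530, minus strand) lay in an exon of the long non-coding RNA gene 4631405K08Rik. Mir31 (ENSMUSG00000065408.1, chr4:88910557-88910662, minus strand) lay in an exon of the long non-coding RNA gene AL805899.1, with the interferon gene Ifne 30356 bp away as the nearest protein-coding gene. Mir184 (ENSMUSG00000065596.1, chr9:89802260-89802328, minus strand) overlapped no gene, and the long non-coding RNA gene 1700017I07Rik began 542 bp away on the other strand. No miRNA gene of that annotation lay within 10000 bp of any of them, the closest being Mir3073a at 21558 bp from Mir203, with 0 sense counts in both replicates. Each is thus counted as a single gene and not as part of a miRNA cluster.

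Levels of the 4 genes spanned 11482-fold from the highest to the lowest by mean CPM. Their combined share of all sense counts was 9.45% in replicate 2 (95% interval by Wilson's method, 9.42 to 9.47) and 8.38% in replicate 1 (8.35 to 8.41). Mir203 alone supplied 81.8% of their counts in replicate 2 and 80.9% in replicate 1. The order Mir203, Mir205, Mir31, Mir184 was the same in both replicates, and the replicate values of neighbours in that order did not overlap. The libraries are of whole limbs, so fewer cells of a type and less miRNA per cell cannot be told apart. Unequal capture of one miRNA sequence over another can also shift levels between genes and was not tested. Reads with several alignments, 29.7% of replicate 2 and 29.4% of replicate 1, entered no gene or total. Shares and ranks are therefore among the counted reads, where genes with near-identical copies can lose reads.

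**Figure D2:**
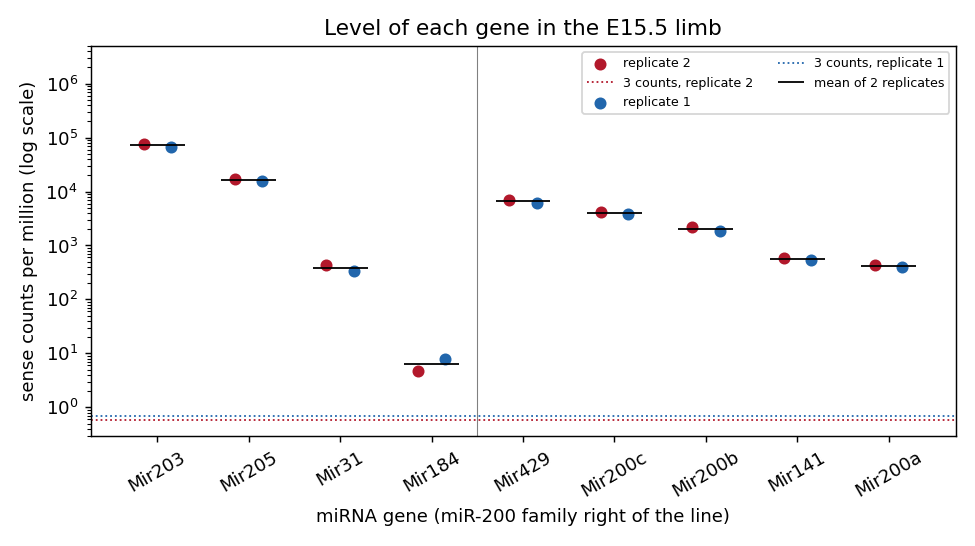
Points show the sense CPM on a log scale for the 4 epidermal genes and, right of the vertical line, the miR-200 family, with replicate 2 in red, replicate 1 in blue, the mean as a black bar and the level of 3 counts as dotted lines. Mir203 and Mir205 lie above every member of the miR-200 family, Mir31 lies near Mir200a, and Mir184 lies lowest, above the dotted lines.

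Mir203, which restrains the basal cell factor p63 and promotes exit from the cell cycle in mouse skin, had 398120 sense counts in replicate 2 and 288966 in replicate 1. This was 77287 CPM in replicate 2 and 67775 CPM in replicate 1, with a mean of 72531 ± 6726 CPM (SD, n = 2). Among the reads counted to a gene, it was the most abundant miRNA gene in both libraries, 434 times the median level of detected genes. Reads with several alignments are left out, so its rank against genes with near-identical copies is not known. The next gene by mean level was Mirlet7i, and its levels were 55733 CPM in replicate 2 and 62103 CPM in replicate 1, below both values of Mir203. The ratio of Mir203 to Mirlet7i in counts was 1.39 in replicate 2 (exact 95% interval 1.38 to 1.39) and 1.09 in replicate 1 (1.09 to 1.10). The lead of Mir203 was therefore narrow in replicate 1 and wider in replicate 2.

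Mir205, which in mouse skin supports the expansion of progenitor cells, had 86262 sense counts in replicate 2 and 66796 in replicate 1. Its level was 16746 CPM in replicate 2 and 15667 CPM in replicate 1, with a mean of 16206 ± 763 CPM (SD, n = 2), at rank 17 in each library. Of the 4 genes it varied least between the pools, with a coefficient of variation of 4.71%, against 9.27% for Mir203, 16.5% for Mir31 and 37.1% for Mir184. The most similar level profile over the 2 replicates was that of Mir30e, with 17056 CPM in replicate 2 and 15775 CPM in replicate 1, a distance of 0.0283 in log2(CPM + 1). Mir99b came next at a distance of 0.134. Mir30e lay directly above Mir205 and Mir411 directly below it by mean CPM, and neither differed from it beyond the spread between replicates.

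Mir31, known from the hair follicle cycle and from keratinocyte growth, had 2229 sense counts in replicate 2 and 1459 in replicate 1. Its level was 433 CPM in replicate 2 and 342 CPM in replicate 1, with a mean of 387 ± 64.0 CPM (SD, n = 2). It stood at rank 124 in replicate 2 and 134 in replicate 1, above 212 of the other detected genes by mean level. The nearest genes over the 2 replicates were Mir34a, which is induced by p53, with 398 CPM in replicate 2 and 367 CPM in replicate 1 (distance 0.155), and Mir374b (distance 0.195). Its neighbours by mean CPM, Mir16-2 above and Mir485 below, overlapped with it in their replicate values. Mir31 thus lay above the median level of detected genes, 167 CPM, and 42.2 ± 5.01 times below Mir205 in counts (SD, n = 2).

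Mir184, reported in human corneal cells and keratinocytes to counter Mir205 on a common target, had 24 sense counts in replicate 2 and 34 in replicate 1. Its level was 4.66 CPM in replicate 2 and 7.97 CPM in replicate 1, with a mean of 6.32 ± 2.34 CPM (SD, n = 2). These counts were 8.0 times and 11.3 times the limit of 3 counts, so the gene was above the floor in both libraries. It ranked 312 in replicate 2 and 288 in replicate 1, and 41 detected genes had a lower mean level. Nearest to it over the 2 replicates were Mir3081 (distance 0.186), with 28 counts in replicate 2 and 34 in replicate 1, and Mir6538 (distance 0.291). The genes directly above and below it by mean, Mir6540 and Mir3962, overlapped with it in their replicate values.

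**Figure D3:**
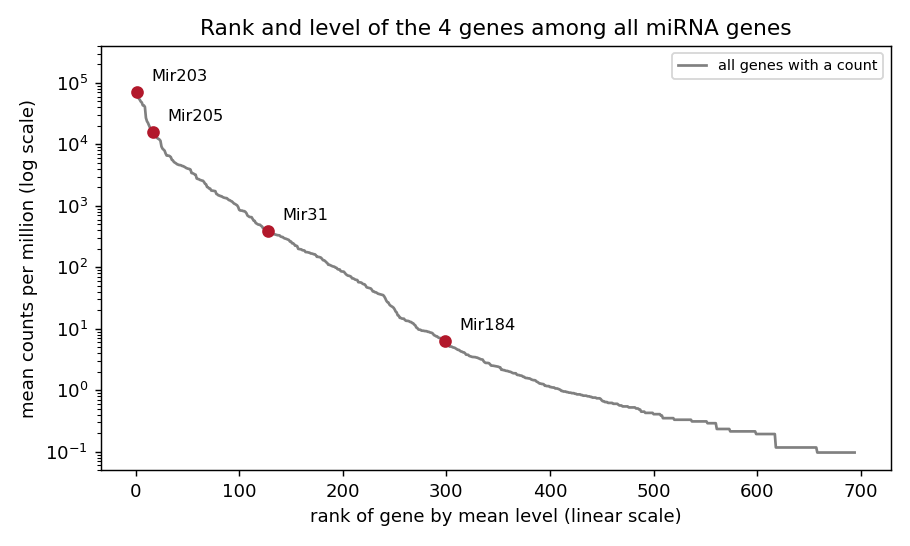
The curve gives the mean CPM (log scale) of every miRNA gene with a count against its rank, and red points mark the 4 epidermal genes. Mir203 is at rank 1, Mir205 at 17, Mir31 at 128 and Mir184 at 299.

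Between the replicates, Mir203, Mir205 and Mir31 were higher in replicate 2 beyond counting noise, and Mir184 did not pass the test. This was an exact two-sided binomial test of the counts given the library totals, with Benjamini-Hochberg adjustment over all 340 detected genes. It compares 2 libraries and not conditions, and it called 50.9% of the detected genes in either direction, 25.3% higher and 25.6% lower in replicate 2. At high counts nearly every gene was called, 90.8% of the 98 genes with a mean of at least 1000 CPM, so a call for Mir203 or Mir205 sets neither apart. The size of the differences is therefore given beside the spread over all detected genes, whose log2 ratio of replicate 2 over replicate 1 had a median of 0.02 and an SD of 0.38.

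Mir203 was 1.14-fold higher in replicate 2 (exact 95% interval 1.13 to 1.15, counting error only), a log2 ratio of 0.19, with an adjusted p of the exact test too small for the number format. A larger absolute log2 ratio was found for 186 of the detected genes. For Mir205 the fold was 1.07 (1.06 to 1.08). Its log2 ratio of 0.10 passed the exact binomial test with an adjusted p = 1.76e-37, and 255 genes had a larger absolute value. For Mir31 it was 1.26 (1.18 to 1.35). Its log2 ratio of 0.34 had an adjusted p = 9.60e-12 in the exact binomial test, and 101 genes had a larger absolute value. All 3 differences were smaller than 1 SD over the detected genes, a spread that includes genes of few counts. Over the 98 genes with a mean of at least 1000 CPM, Mir203 and Mir205 among them, the SD was 0.26. The log2 ratios of Mir203 and Mir205 were below this as well. That of Mir31, a gene of lower level, was above it.

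Mir184 had the opposite sign, with a fold of 0.584 in replicate 2 over replicate 1 (exact 95% interval 0.331 to 1.01) and a log2 ratio of -0.78. The adjusted p was 0.0878 and the unadjusted p 0.0475 (exact binomial test). The absolute log2 ratio was beyond 1 SD over the detected genes, and 16 of them had a larger one. Over the 63 detected genes with summed counts within 2-fold of those of Mir184, the log2 ratio had an SD of 0.55, which the absolute value for Mir184 also exceeded. Thus 3 of the 4 genes were called and 1 was not, where 50.9% of all detected genes and 90.8% of those with a mean of at least 1000 CPM were called. The 4 genes had a median log2 ratio of 0.14, beside 0.02 over all detected genes with their SD of 0.38.

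**Figure D4:**
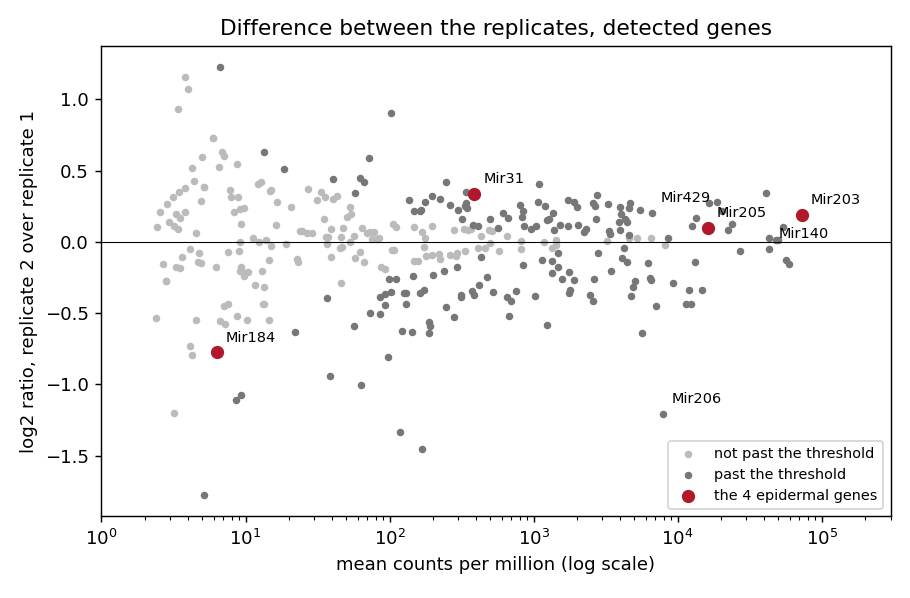
Each point is a detected gene, with its mean CPM on a log axis and the log2 ratio of replicate 2 over replicate 1, dark grey where it passed the exact binomial test and red for the 4 epidermal genes. Mir203, Mir205 and Mir31 lie between 0.10 and 0.34, and Mir184 lies at -0.78 among genes of few counts.

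Ratios between the genes within one library need no library total. Mir203 had 4.62 counts per count of Mir205 in replicate 2 (exact 95% interval 4.58 to 4.65) and 4.33 in replicate 1 (4.29 to 4.36). Mir205 had 38.7 counts per count of Mir31 in replicate 2 (37.1 to 40.4) and 45.8 in replicate 1 (43.5 to 48.3). The differentiation miRNA Mir203 and the proliferation-linked Mir31 were thus both higher relative to the basal Mir205 in replicate 2, with intervals that did not overlap. These intervals cover counting error only, and with 1 pool per value the spread between pools of embryos behind each ratio is not known. Mir31 had 92.9 counts per count of Mir184 in replicate 2 (62.3 to 145) and 42.9 in replicate 1 (30.6 to 62.2), again without overlap, by a narrow margin. The intervals of the other ratios to Mir184 did overlap, with 16588 counts of Mir203 per count of Mir184 in replicate 2 (11149 to 25891) and 8499 in replicate 1 (6082 to 12273). For Mir205 the ratio was 3594 in replicate 2 (2415 to 5610) and 1965 in replicate 1 (1406 to 2837).

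Other epithelial miRNAs gave a frame for these levels. The miR-200 family, which keeps the epithelial state by repressing Zeb1 and Zeb2, held 14361 CPM in replicate 2 and 12808 CPM in replicate 1 over its 5 genes. Each was called higher in replicate 2, as were 25.3% of all detected genes. Small differences are called more often at high counts. Among the 247 genes with at least 100 counts in both replicates, these 5 included, 84 were called higher and 83 lower. The median log2 ratio of the family was 0.11, beside 0.02 over all detected genes with their SD of 0.38. Mir429, the highest of the family, had 7055 CPM in replicate 2 and 6137 CPM in replicate 1. Mir203 had 10.95 counts per count of Mir429 in replicate 2 (exact 95% interval 10.8 to 11.1) and 11.04 in replicate 1 (10.9 to 11.2), so this ratio did not differ beyond counting error. Mir205 had 2.37 counts per count of Mir429 in replicate 2 (2.34 to 2.40) and 2.55 in replicate 1 (2.52 to 2.59), with separate intervals.

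A list of other miRNAs linked to skin epithelium had 12 genes, of which 11 were rows of the tables and detected. In replicate 2, 6 of them rose, 0 fell and 5 did not pass, where 25.3% of all detected genes rose and 25.6% fell. All 11 had at least 100 counts in both replicates, and of the 247 such genes 84 rose and 83 fell. The median log2 ratio of the 11 was 0.09, within the SD of 0.38 over all detected genes. Those that rose included Mir96, a miRNA of sensory cells that is also found in hair follicles, with 1244 CPM in replicate 2 and 940 CPM in replicate 1. Its cluster partner Mir183 had 2805 CPM in replicate 2 and 2322 CPM in replicate 1, and also rose. Mir135b had the largest log2 ratio of the list, 0.90, with 134 CPM in replicate 2 and 71.8 CPM in replicate 1. Mir125b-2, Mir24-2, Mir21a, Mir132 and Mir182 did not pass, with log2 ratios between -0.01 and 0.08. Reads common to copies such as Mir125b-1 and Mir125b-2 are in neither count.

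Whole limb holds cartilage, muscle, vessels and mesenchyme beside skin, and the miRNAs of these tissues were present in the same libraries. Summed levels were 45564 CPM in replicate 2 and 47612 CPM in replicate 1 for the cartilage genes Mir140 and Mir455. Both were called lower in replicate 2, with log2 ratios of -0.05 and -0.21, within the SD of 0.26 over genes of at least 1000 CPM. For the dermis and mesenchyme list of 6 genes the sums were 32059 CPM in replicate 2 and 30683 CPM in replicate 1, with 3 genes higher and 2 lower in replicate 2. The skeletal muscle list summed to 4986 CPM in replicate 2 and 11549 CPM in replicate 1. Of its 8 genes 7 were rows, all 4 detected ones fell in replicate 2, and Mir133a-1 was at 0 in both libraries. Mir133a-1 and Mir133a-2 are copies, as are Mir1a-1 and Mir1a-2, and reads common to copies are in no count. The muscle sum can therefore lack their reads, and a count of 0 does not show absence. Endothelial Mir126a had 22975 CPM in replicate 2 and 21698 CPM in replicate 1. The limb and Hox list summed to 80249 CPM in replicate 2 and 67226 CPM in replicate 1, with 5 of 8 genes higher and 0 lower in replicate 2. Over all detected genes 25.3% were higher and 25.6% lower. All of the list but Mir196a-1 had at least 100 counts in both replicates, and of the 247 such genes 84 were higher and 83 lower. Mir199a-1, Mir199a-2 and Mir214 are in both this list and the dermis and mesenchyme list. The limit on reads common to copies also holds for the Mir199a and Mir196a genes of these lists.

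Of 5 genes of other tissues and epithelia that Mir203 and Mir205 were divided by, the muscle gene gave the ratios that differed most between the replicates. Mir203 had 16.1 counts per count of the muscle miRNA Mir206 in replicate 2 (exact 95% interval 15.9 to 16.4) and 6.13 in replicate 1 (6.07 to 6.19). The levels of Mir206 were 4787 CPM in replicate 2 and 11050 CPM in replicate 1, so most of that difference lay in Mir206 and not in Mir203. Relative to Mir140, Mir203 had 1.82 counts per count in replicate 2 (1.81 to 1.83) and 1.54 in replicate 1 (1.53 to 1.55). Relative to Mir214, from the mesenchymal transcript Dnm3os, it had 3.55 in replicate 2 (3.52 to 3.57) and 3.61 in replicate 1 (3.59 to 3.64). Mir205 had 0.729 counts per count of Mir126a in replicate 2 (0.723 to 0.735) and 0.722 in replicate 1 (0.715 to 0.729), which did not differ beyond counting error. The part of muscle content in the higher shares of the epidermal genes in replicate 2 was not tested.

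**Figure D5:**
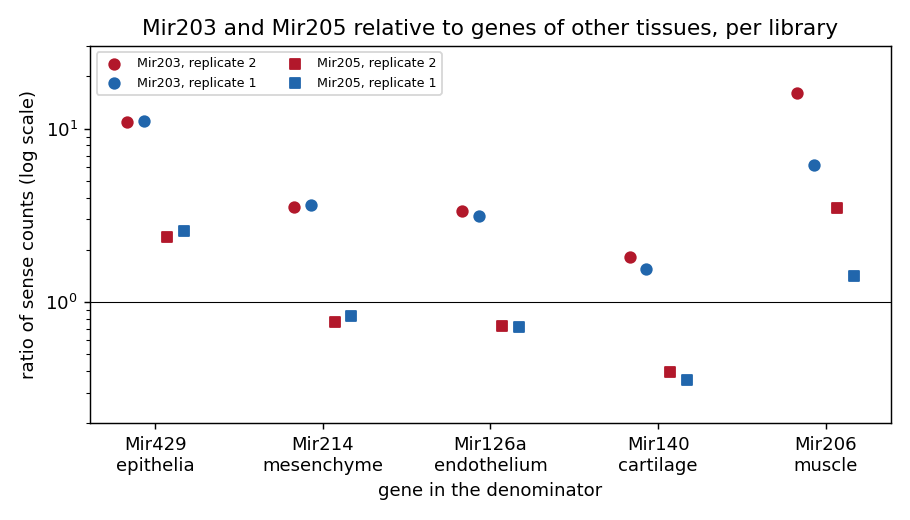
Counts of Mir203 (circles) and Mir205 (squares) are divided by the counts of 1 other gene in the same library, on a log scale, with replicate 2 in red and replicate 1 in blue. Mir429 is a gene of epithelia, and the others are genes of other tissues. The replicates lie close together for Mir429, Mir214, Mir126a and Mir140, and apart for Mir206, where Mir203 stood at 16.1 in replicate 2 and 6.13 in replicate 1.

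Of the lists for other tissues, the neuronal one was near the floor, the liver and blood lists were low, and the lens and cornea list was not. The neuronal list summed to 1.36 CPM in replicate 2 and 2.11 CPM in replicate 1 over 5 rows, with Mir124a-1, Mir124a-2, Mir124a-3 and Mir9-2 at 0 in both. These genes have near-identical copies, and reads common to the copies are in no count. The hepatocyte miRNA Mir122 had 86.2 CPM in replicate 2 and 57.5 CPM in replicate 1, and was called higher in replicate 2 with a log2 ratio of 0.58. The blood list summed to 851 CPM in each replicate over 3 rows. Past the test were 0 of its 3 genes, beside 50.9% of all detected genes. The list of 5 lens and cornea miRNAs, the tissues where Mir184 is best known, summed to 9011 CPM in replicate 2 and 8091 CPM in replicate 1. Most of this came from Mir182, Mir183 and Mir96, which are also in the skin epithelium list and had means of 4555 ± 54.3, 2564 ± 342 and 1092 ± 215 CPM (SD, n = 2). Mir204 had 363 CPM in replicate 2 and 304 CPM in replicate 1, near the level of Mir31. Mir184 was the only gene of that list of 5 below 10 CPM in mean level, and the others of the list are also expressed outside the eye.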

How the data were processed

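The authors deposited 1 table per library of raw read counts for miRNA genes, mapped to mm10 with annotation M4, per the deposited README. The aligner, the counter and their versions are not given in the sources used here. The tables have no header. In all genes the first count column equalled the other 2 added together, and these were read as sense and antisense counts from their sizes. Reads with several alignments (29.7% of replicate 2 and 29.4% of replicate 1) are on a line of their own and entered no gene or library total. Symbols were matched by gene identifier to GENCODE M21 (1894 of 1973 genes).

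Each gene with a sense count of 10 or more in both replicates was tested by a two-sided exact binomial test conditional on the library totals, with Benjamini-Hochberg adjustment at 0.05 (scipy 1.17.1, Python 3.11.15), after a check on simulated data. The simulated counts had counting noise and no spread between pools, so the check does not cover that spread. With 1 group, no quasi-likelihood test was possible. P-values measure only differences between these 2 libraries. Intervals of shares are Wilson and those of ratios exact, both at 95%. No molecular identifiers are named, so all intervals cover counting error only. Alternatives used totals of all reads, edgeR 4.0.16 TMM, DESeq2 1.42.0 size factors, other count minimums and both strands. Folding used RNAfold 2.7.2.

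The 4 genes and all lists were chosen with earlier results of these data known, and the single genes that Mir203 and Mir205 are divided by were chosen after their values were seen. Named genes are the 4 genes, listed genes, their neighbours by mean level, and the 2 detected genes nearest in log2(CPM + 1) over both replicates. Listed genes with no row were Mir24-1, Mir1a-2, Mir142 and Mir9-1.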

Additional observations from a re-analysis of the deposited data

Results flagged for a closer look

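The Mir203 locus had reads on the strand opposite the gene, a signal outside the sense counts used for the levels. There were 47 antisense counts in replicate 2 and 29 in replicate 1, or 0.0118% and 0.0100% of the counts of the locus, above the 3 counts that a count of 0 allows. Among the 24 genes whose sense counts reached 50000 in both replicates, 0 had more antisense counts than Mir203 in either replicate, and 16 had none in both. Mir203 also has the most sense counts of these genes, and as a share Mir126a was above it in replicate 2, with 0.0127% in replicate 2 and 0.00865% in replicate 1. Some genes below this cut had larger antisense shares than Mir203. Mir708 had 19 antisense counts in each replicate, beside 10801 sense counts in replicate 2 and 7376 in replicate 1. Mirlet7b had 11 in each, beside 30198 and 29793. Of 257 genes whose 2 strands summed to 100 or more per library, 23 had antisense reads in both libraries. The share of Mir203 is thus not the highest in these libraries. RefSeq lists 2 mature RNAs on the strand opposite Mir203, and each overlaps an arm of miR-203 over 20 bases. They are shown with the seed in capitals.
miR-203b-3p: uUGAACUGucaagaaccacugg
miR-203b-5p: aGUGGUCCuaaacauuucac
Neither has a row of its own in these tables, and whether the antisense reads are miR-203b was not tested. Mir205 had 1 antisense count in replicate 2 and 0 in replicate 1, and Mir31 and Mir184 had 0 in both.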

How the results depend on the processing

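The log2 ratios of Mir203, Mir205, Mir31 and Mir184 kept their sign and their side of the threshold under every scaling, count minimum and strand choice that gave a value. With at least 100 counts in both replicates Mir184 was not tested. Counts of called genes lay between 167 and 184, against 173. The share of calls higher in replicate 2 was 49.7%, and 45.5% to 53.6% under the other settings. Levels moved where the total changed by construction. With all reads of the library as the total, Mir203, Mir205, Mir31 and Mir184 had 34070, 7610, 182 and 2.96 counts per 1000000 reads and together 4.19% of the reads. Without the 10 most abundant genes in the total, they had 143173, 31979, 765 and 12.4 CPM. Without Mir203 in the total, Mir205 had 17477 CPM. In all, 83 values stayed within the limits set and 10 moved. For levels and the share the limit was 1 SD over the 2 replicates around the mean. A single replicate always lies within it, so the values without 1 replicate could not move and carry no weight in the 83. Leaving out either replicate leaves the value of the other, given in the report, as 67775 to 77287 CPM for Mir203, 15667 to 16746 for Mir205, 342 to 433 for Mir31 and 4.66 to 7.97 for Mir184. No paired analysis was possible because the series has 1 group. Depth limits the precision for Mir184, with 24 counts in replicate 2 and 34 in replicate 1.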
